A study of Mus musculus with 11 samples.

Results

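The comparison described here asks whether the response to lipopolysaccharide (LPS) differed between macrophage-type cells with and without a hairpin against GIV. For each gene it is the LPS response of the GIV-depleted cells minus the LPS response of the control cells, in log2 units of TPM + 1 (TPM is a share of all transcripts corrected for transcript length). A difference above 0 means that the transcript rose more, or fell less, in depleted cells. The members are 9 of the 10 libraries in the deposited table, out of 11 labelled samples, and 13711 of 52143 genes passed the filter on low values. All cells were RAW, a mouse macrophage-like line, carrying either the control hairpin shC or the hairpin shGIV. The groups were control cells without LPS (sets 1 and 3), control cells after 5 h of LPS at 100 ng/ml (set 2), depleted cells without LPS (sets 1, 2 and 3) and depleted cells after the same LPS treatment (sets 1, 2 and 3). The labels do not say whether each hairpin line was a clone or whether sets were separate cultures, so the p-values measure the spread between these libraries only. Total RNA was sequenced after ribosomal RNA removal, in stranded libraries.

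LPS, a component of the outer membrane of Gram-negative bacteria, is sensed by Toll-like receptor 4 with its partners Cd14 and Md2. The receptor signals through the adaptor Myd88 to NF-kB and AP-1, which switch on cytokine genes early, and through Trif to interferon beta, which in turn switches on the antiviral genes. GIV, also called Girdin and encoded by Ccdc88a, binds actin, Akt and inhibitory G alpha subunits and modulates trimeric G proteins at receptors. Activated macrophages also shut down cell division and change their sterol synthesis, and RAW cells can become osteoclast-like cells.

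The control LPS group was a single library, which the model assumes to vary like the other groups. Every difference below rests on it. The control library without LPS of its own set is the one left out, so the control response compares libraries of different sets. In that left-out library Mir6236, annotated as a microRNA gene, took 57.8% of TPM and coding genes 7.81%. Ribosomal RNA genes took 3.54% there, against 0.241% to 0.559% in the 9 libraries used, and the source of the Mir6236 signal was not tested. The control LPS library had the fewest genes above 0 (19795, against 20344 to 21678 in the other 8) and the largest coding share (81.7%, against 74.1% to 79.3%). Of 10 macrophage markers 9 reached 1 TPM, with summed levels of 18071 to 19713 TPM at rest, 14626 TPM in the control LPS library and 12180 to 12756 TPM in the depleted LPS libraries. Of the markers of other cell types, 1 of 10 for neutrophils, 1 of 10 for T and NK cells, 2 of 8 for B cells, 1 of 8 for dendritic cells, 0 of 8 for fibroblasts and 0 of 6 for epithelial cells reached 1 TPM in the 9 libraries. Summed B cell markers were at 30.9 to 39.7 TPM without LPS, at 59.6 TPM in the control LPS library and at 43.6 to 45.3 TPM in the depleted LPS libraries. The sums for T and NK cells were 6.18 to 8.86, 31.7 and 26.1 to 32.9 TPM in the same order. Neutrophil markers summed to 1.25 to 4.16, 17.0 and 13.8 to 17.8 TPM, and dendritic cell markers to 0.939 to 1.73, 2.60 and 4.45 to 4.52 TPM. The defining markers Cd3e, Ly6g and Flt3 stayed at or near 0 TPM in every library, and the part of these sums in the differences was not tested. Ccdc88a, the targeted transcript, was at 10.0 and 7.69 TPM in control cells without LPS and at 5.77 TPM with LPS. The depleted libraries held 6.93, 5.31 and 5.58 TPM without LPS and 3.08, 2.62 and 3.39 TPM with LPS. Between the lines it differed by -0.50 without LPS (limma adjusted p = 0.232) and by -0.75 with LPS (adjusted p = 0.0681), neither past the threshold, and the name GIV-depleted follows the labels. Its response differed by -0.25 ± 0.24 log2 units (SE, limma adjusted p = 0.631), which did not pass the threshold, with a 95% interval of -0.82 to 0.32.

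Of 13711 genes tested 31 (0.226%) were called at a limma adjusted p under 0.05, 13 higher (0.0948%) and 18 lower (0.131%). At an unadjusted p under 0.05 there were 2374 (17.3%), of which 392 were higher (2.86%) and 1982 lower (14.5%), and 70.1% of all genes lay below 0. With 5 residual degrees of freedom and 1 library in the control LPS group, a small count of calls does not show that the responses were alike. The median of all genes was -0.15, and 0.01 with TMM scaling, -0.01 with quantile normalization and -0.02 after rescaling. The split of calls moved with it, to 49 higher and 29 lower with TMM, 25 and 14 with quantile normalization, and 34 and 32 after rescaling. Lists of genes are therefore described by their median beside that of all genes. Their counts at an unadjusted p under 0.05 are to be read beside the 2.86% higher and 14.5% lower of all genes. No call held when replicate 1 or replicate 2 of the depleted LPS libraries was left out, where 2363 and 2435 genes had an unadjusted p under 0.05. Leaving out depleted LPS replicate 3 left 3 higher and 6 lower, depleted replicates 1, 2 or 3 without LPS 6 and 4, 1 and 1, or 1 and 1, and control replicates 1 or 3 without LPS 6 and 5 or 7 and 14. With the left-out control library included, 0 genes were called by limma and 226 had an unadjusted p under 0.05. That library was left out by the rule of the comparison, and the 31 calls hold for the 9 libraries.

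**Figure D1:**
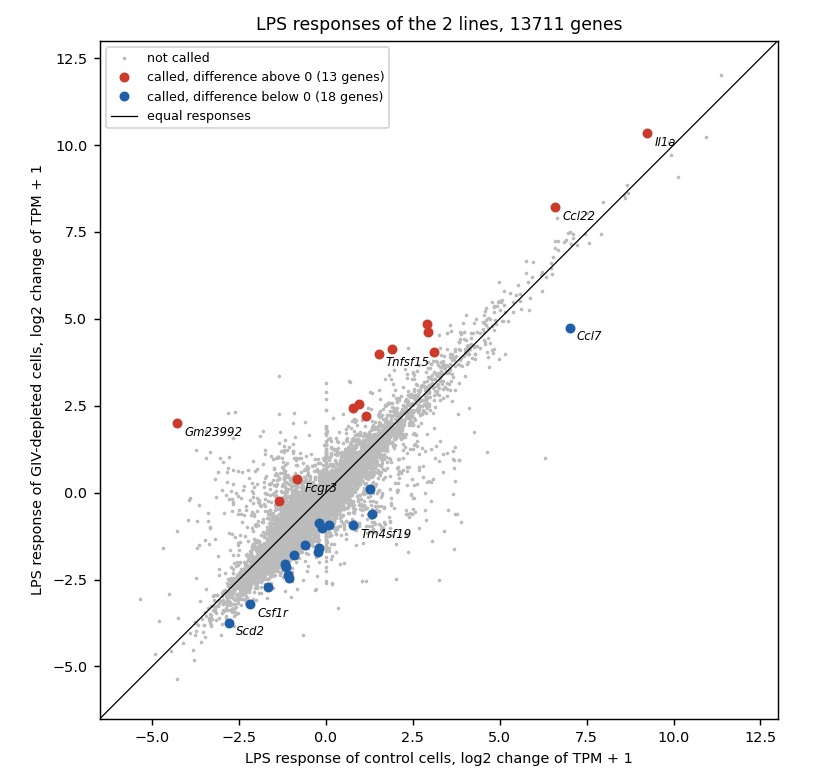
Each point is 1 of 13711 genes, with the LPS response of control cells on the x axis and that of GIV-depleted cells on the y axis, both as log2 changes of TPM + 1. Red points are the 13 genes called above 0 and blue points the 18 called below 0, and the line marks equal responses. Ccl7 lies far below the line and Ccl22, Il1a and Tnfsf15 above it.

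Most of the 13 higher genes were amplified responses. Of these 10 rose in both lines and rose more in depleted cells, 1 fell in both and fell less (Enc1), and 2 moved in opposite directions (Fcgr3 and Gm23992). Among the 18 lower genes 9 fell in both lines and fell further in depleted cells, while Ccl7 rose in both and rose less. Tm4sf19 and Gm20056 moved in opposite directions, and 6 changed past the threshold in just 1 of the lines. Of all genes tested, 58.9% changed with LPS in control cells (14.8% higher, 44.1% lower) and 75.5% in depleted cells (15.8% higher, 59.7% lower). By the same model the lines differed after LPS in 28 of the 31 genes, where 5.27% of all genes did (0.89% higher, 4.38% lower). Without LPS they differed in 7, where 1.22% of all genes did (0.489% higher, 0.729% lower). For 7 of the 31 genes the control mean without LPS was under 1 TPM. The control LPS library lay outside the range of the 3 depleted LPS libraries for 30 of the 31, against 64.5% of all genes tested. The 31 genes were chosen by a difference that contains these same values, so these counts describe the choice and support nothing.

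Among the secreted ligands, 3 proinflammatory cytokines rose more in depleted cells. Tnfsf15, a TNF family cytokine that acts on lymphocytes, was at 0.0142 and 0.0540 TPM in control cells without LPS and at 1.95 TPM with LPS. Depleted cells had 0.232, 0.0637 and 0.0401 TPM without LPS and 18.9, 15.4 and 15.9 TPM with LPS. All 3 depleted LPS libraries lay above the control LPS library, at a mean 8.56 times its level, and the responses differed by 2.48 ± 0.23 (SE, limma adjusted p = 0.0198). Il33, an alarm cytokine of the interleukin 1 family that drives type 2 immunity, is listed at 0 TPM in all 5 libraries without LPS. After LPS its level was 2.70 TPM in control cells and 18.8, 13.6 and 18 TPM in depleted cells, and the responses differed by 2.25 ± 0.25 (adjusted p = 0.0281). Il1a, which encodes interleukin 1 alpha, was at 0.0503 and 0 TPM in control cells and at 0, 0.0451 and 0 TPM in depleted cells without LPS. LPS brought it to 621 TPM in control cells and to 1414, 1234 and 1287 TPM in depleted cells, a difference of 1.09 ± 0.12 (adjusted p = 0.0281). A noncoding gene, Gm14023, overlaps an exon of Il1a on the opposite strand at a low level (a mean log2 value of 0.985). The levels of Tnfsf15 and Il33 without LPS lie where adding 1 TPM flattens changes. With a pseudocount of 0.1 their differences were 2.46 and 2.58, and neither passed the threshold.

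The chemokines moved both ways. Ccl22, which attracts T cells that carry Ccr4, was at 0.177 and 0.0847 TPM in control cells without LPS and at 107 TPM with LPS. Depleted cells had 0.231, 0.139 and 0.311 TPM without LPS and 363, 361 and 368 TPM with LPS, and the responses differed by 1.64 ± 0.13 (SE, limma adjusted p = 0.0112). Ccl7, a monocyte attractant that binds Ccr2, is listed at 0 TPM in both control libraries without LPS and in 2 of the 3 depleted ones, with 0.0729 TPM in the other. After LPS it was at 128 TPM in control cells and at 27.0, 26.7 and 25.4 TPM in depleted cells, so that its mean was 0.206 of the control level and its response was lower by -2.27 ± 0.14 (adjusted p = 0.00525), the smallest adjusted p of the comparison. Leaving out each of the 8 libraries outside the lone group gave -2.29 to -2.23 for Ccl7 and 1.58 to 1.69 for Ccl22. Both were called in 6 of those 8 fits, and no other called gene in more than 4. Il33, Il1a, Ccnd2, Fcgr3, Enc1, Nupr1, Lss, Dhx37, Ppan, Cenpv, Lonrf3 and Dpp7 were called in 0 of them.

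Ccl2, the neighbouring monocyte attractant that ends 8259 bases before Ccl7 on chromosome 11, was lower in depleted cells at both times. It was at 8.77 and 8.43 TPM in control cells and at 1.64, 2.48 and 2.98 TPM in depleted cells without LPS. With LPS the levels were 1820 TPM in control cells and 487, 488 and 456 TPM in depleted cells. The LPS responses of Ccl2 differed by -0.40 ± 0.25 (SE, limma adjusted p = 0.446), with a 95% interval of -0.97 to 0.18. Ccl7 and Ccl2 were thus both lower in depleted cells after LPS, and of this pair only Ccl2 had a level above 1 TPM without LPS at which a line difference could be measured. Ccl12, the next gene of the cluster, is listed at 0 TPM in the 5 libraries without LPS, and it was at 14.9 TPM in the control LPS library and at a mean of 9.37 TPM in the depleted ones (-0.63, adjusted p = 0.305).

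**Figure D2:**
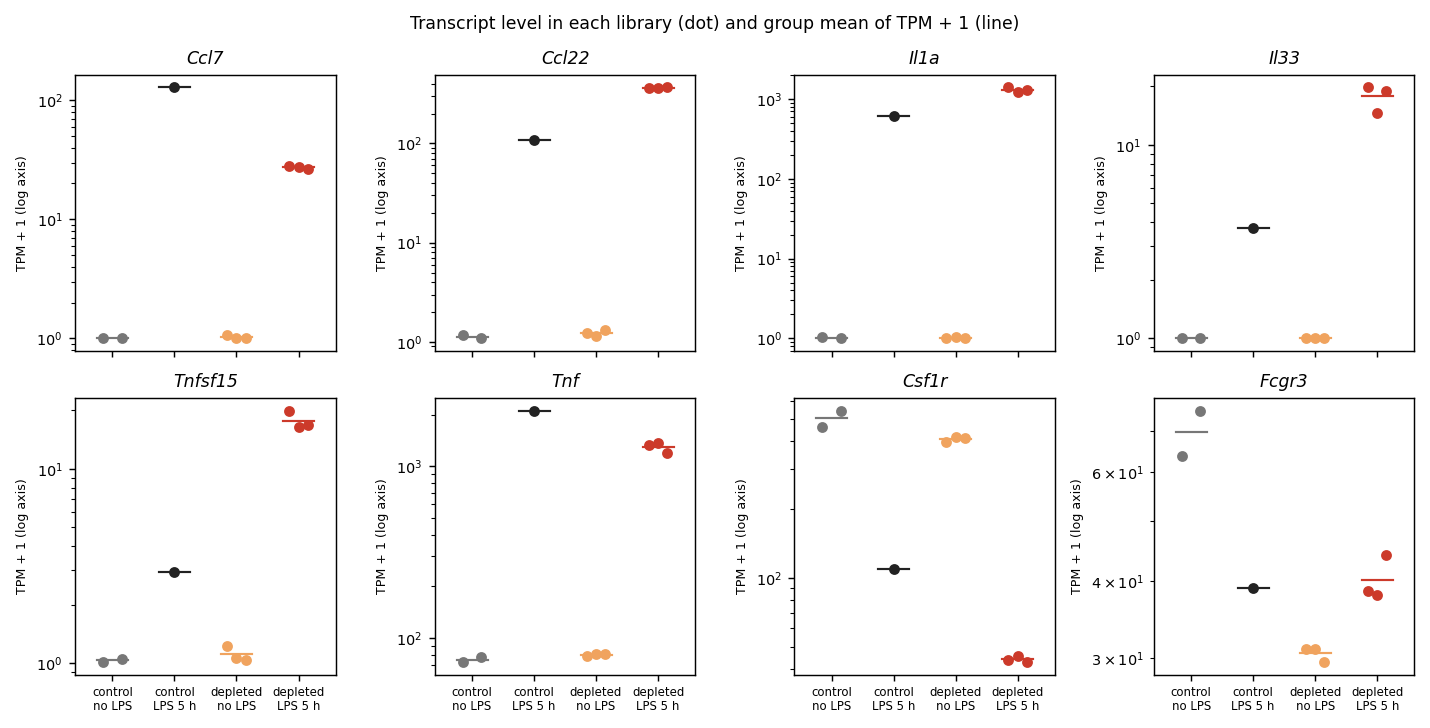
TPM + 1 on a log axis in each of the 9 libraries (dots) with group means (lines), for 8 genes. The 3 depleted LPS libraries lie below the control LPS library for Ccl7, Tnf and Csf1r and above it for Ccl22, Il1a, Il33 and Tnfsf15. Fcgr3 was at 38.0 TPM in the control LPS library, within the range of the depleted ones, and differs without LPS.

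The other classical cytokines gave a mixed picture with no further call. Of 23 listed proinflammatory cytokines 19 were tested and all 19 rose in both lines, as did 1772 of all 13711 genes. Of these 3 were called higher and 0 lower, and 6 were higher and 2 lower at an unadjusted p under 0.05. Their median difference was 0.28, against -0.15 for all genes. Tnf, the fever and shock cytokine, was at 71.7 and 76.4 TPM in control and at 77.6, 79.6 and 79.8 TPM in depleted cells without LPS. With LPS it was at 2108 TPM in control cells and at 1333, 1368 and 1197 TPM in depleted cells, a difference of -0.79 ± 0.11 (SE) at a limma adjusted p of 0.0510, just outside the threshold. Csf3, which raises neutrophil output, reached 2015 TPM in control cells and 1384, 1540 and 1233 TPM in depleted cells (-0.72, adjusted p = 0.125). Il1b had 3939 TPM in control and 7040, 7022 and 6954 TPM in depleted cells with LPS (0.65 ± 0.30, adjusted p = 0.314). Il6 had 189 TPM in control and 307, 254 and 247 TPM in depleted cells (0.53, adjusted p = 0.185, 95% interval 0.14 to 0.93). Ifnb1, which encodes interferon beta, had 14.3 TPM in control and 27.7, 26.1 and 25.5 TPM in depleted cells (0.69, adjusted p = 0.118).

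Of 21 listed chemokines 15 were tested, and all 15 rose in both lines, as did 1772 of all 13711 genes. Of these 1 was called higher and 1 lower, 3 were higher and 4 lower at an unadjusted p under 0.05, and their median was -0.22. Cxcl2, a neutrophil attractant, reached 6544 TPM in control cells and 4310, 4710 and 3699 TPM in depleted cells (-1.03 ± 0.24, SE, limma adjusted p = 0.107). Cxcl11, an interferon-induced T cell attractant, reached 187 TPM in control cells and 517, 444 and 548 TPM in depleted cells (1.23 ± 0.27, adjusted p = 0.0998). Ccl17, which shares the receptor Ccr4 with Ccl22, reached 8.32 TPM in control cells and 14.9, 14.1 and 16.4 TPM in depleted cells (0.67, adjusted p = 0.214). Cxcl10 reached 2754 TPM in control cells and 2804, 2700 and 2575 TPM in depleted cells (0.10, 95% interval -0.26 to 0.47). Cxcl2, Cxcl11, Ccl17 and Csf3 lie outside the rule for named genes and were chosen after their values were seen, as were the uncalled genes named below beyond the fixed activation genes and the most abundant members of each list.

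The DNA just upstream of 4 called genes is shown so that their regulatory letters can be read. They are the 2 with the largest difference in each direction among those with an available promoter sequence. Gm23992, Ccl7 and Gm20056 differed more but had no such sequence. Sequences are from RefSeq on GRCm38.p6, up to 250 bases before an annotated start and without bases in a GENCODE M21 exon, 5′ to 3′ on the gene's strand. They are Tnfsf15 (chr4:63745114-63745309, minus strand), the first of the Il33 starts (chr19:29924863-29925112, plus strand), Tm4sf19 (chr16:32400256-32400505, plus strand) and Bhlhe41 (chr6:145865559-145865670, minus strand).
Tnfsf15: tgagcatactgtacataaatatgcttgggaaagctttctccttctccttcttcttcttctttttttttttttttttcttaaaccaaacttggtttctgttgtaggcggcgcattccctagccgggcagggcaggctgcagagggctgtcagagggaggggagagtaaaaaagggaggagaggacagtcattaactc
Il33: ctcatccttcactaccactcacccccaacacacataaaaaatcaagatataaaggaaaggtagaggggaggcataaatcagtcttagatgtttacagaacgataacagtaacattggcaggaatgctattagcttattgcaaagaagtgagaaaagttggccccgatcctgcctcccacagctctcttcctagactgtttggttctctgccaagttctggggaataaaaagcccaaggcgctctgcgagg
Tm4sf19: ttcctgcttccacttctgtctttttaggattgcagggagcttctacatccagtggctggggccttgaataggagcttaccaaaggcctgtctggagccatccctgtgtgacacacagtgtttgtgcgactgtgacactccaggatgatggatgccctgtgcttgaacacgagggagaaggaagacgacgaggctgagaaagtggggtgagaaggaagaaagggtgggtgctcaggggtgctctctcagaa
Bhlhe41: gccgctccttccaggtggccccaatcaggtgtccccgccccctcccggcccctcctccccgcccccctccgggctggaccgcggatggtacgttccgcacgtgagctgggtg
None of the full 250-base windows of these 4 genes, or the window of the second Il33 start, held a match to any of 4 motifs searched on both strands. These were the NF-kB consensus, the interferon-stimulated response element (GAAA and GAAA with any 2 bases between), a sterol element (ATCAC and CCAC with any 1 base between) and an AP-1 site (TGANTCA), and no match says only that these letters are not in the window. Promoters were in the table for 8 of the 13 higher genes (10 windows) and 10 of the 18 lower genes (10 windows). An NF-kB match lay in 1 of the 8 higher genes, Fcgr3, where the windows of 2 nearby starts hold the same site, and in 0 windows of lower genes. It lay in 8.78% of the 11580 windows of genes tested and in 7.25% of all 32851 windows of the same length. By gene, it lay in 943 of the 9099 tested genes with a window. An AP-1 match lay in 2 of the 10 windows of higher genes and 1 of the 10 of lower genes, against 4.44% of windows of genes tested. The interferon and sterol elements lay in 0 windows of called genes. With 10 windows in each direction these counts are too few to compare with the shares.

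Among receptors at the cell surface, the antibody receptor Fcgr3 was called higher, and the growth factor receptor Csf1r, the inhibitory receptor Sirpa and the integrin Itgax were called lower. Fcgr3, a low-affinity activating Fc receptor, was at 62.7 and 74.4 TPM in control cells without LPS and at 38.0 TPM with LPS. Its depleted levels were 30.05, 30.07 and 28.6 TPM without LPS and 37.6, 37.0 and 43.1 TPM with LPS. The transcript fell in control cells and rose in depleted cells to about the same level, and the responses differed by 1.22 ± 0.15 (SE, limma adjusted p = 0.0405). Its difference turned to -0.14 when the left-out control library was included. Fcgr1, the high-affinity Fc receptor, went from 13.6 and 11.7 TPM to 208 TPM in control cells. The depleted line went from 7.74, 7.57 and 6.37 TPM to 240, 237 and 240 TPM (0.93 ± 0.15, adjusted p = 0.0615). Fcgr4 reached 105 TPM in control cells and 163, 166 and 186 TPM in depleted cells with LPS (0.94, adjusted p = 0.0806). The Fcgr3 window (chr1:171059404-171059626, minus strand) precedes a start inside the annotated gene, which spans bases 171051174 to 171064935. It is shown with the NF-kB match in capitals, the first base of the match 152 bases before that start.
Fcgr3: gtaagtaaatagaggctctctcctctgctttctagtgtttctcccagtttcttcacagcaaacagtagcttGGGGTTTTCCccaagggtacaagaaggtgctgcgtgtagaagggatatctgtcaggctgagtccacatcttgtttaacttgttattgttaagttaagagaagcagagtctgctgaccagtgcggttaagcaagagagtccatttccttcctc

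Csf1r, the receptor for the growth factor that keeps macrophages alive, was at 459 and 541 TPM in control cells without LPS and at 109 TPM with LPS. Depleted cells went from 396, 414 and 408 TPM to 42.8, 44.6 and 41.8 TPM, a fall that was larger by -1.02 ± 0.12 (SE, limma adjusted p = 0.0355). Part of Csf1r overlaps exons of Hmgxb3 on the opposite strand, which is expressed (a mean log2 value of 3.43), and the way strand was used in quantification is not given in the sources used here. Sirpa, an inhibitory receptor that binds the "do not eat me" protein Cd47, was at 301 and 354 TPM in control cells without LPS and at 152 TPM with LPS. Its depleted level went from 322, 337 and 366 TPM to 63.6, 66.8 and 63.3 TPM, with a difference of -1.28 ± 0.14 (adjusted p = 0.0281). The integrin Itgax, also known as CD11c, rose from 8.86 and 9.71 TPM to 23.7 TPM in control cells. In depleted cells it was already at 18.3, 17.6 and 16.9 TPM without LPS and at 19.9, 18.8 and 18.2 TPM with LPS (-1.16 ± 0.12, adjusted p = 0.0269). The lines differed without LPS for Itgax and after LPS for Csf1r and Sirpa.

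Of 24 phagocytic, Fc and scavenger receptors listed 19 were tested, with 1 called higher and 1 lower, and 7 higher and 3 lower at an unadjusted p under 0.05. Their median was 0.19, against -0.15 for all genes. Under each of the other 3 scalings 3 were called higher and 1 lower. Of 33 cytokine and chemokine receptors 27 were tested, with 0 called higher and 1 lower (Csf1r), and a median of 0.05. Il4ra, the receptor chain for interleukin 4, was at 5.98 TPM in the control LPS library, against 16.0, 17.7 and 17.5 TPM in the depleted ones, but its control libraries without LPS ranged from 0.229 to 1.67 TPM (1.59 ± 0.49, SE, limma adjusted p = 0.179). Cx3cr1, a chemokine receptor, fell from 65.9 and 67.9 TPM to 22.4 TPM in control cells. Depleted cells had 45.8, 44.6 and 47.1 TPM without LPS and 9.34, 9.14 and 8.45 TPM with LPS (-0.69, adjusted p = 0.0542).

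The genes that carry the signal from Toll-like receptor 4 did not differ past the threshold. Of 25 listed 24 were tested and 0 were called, with a median of -0.15, that of all genes. At an unadjusted p under 0.05, 0 were higher and 4 lower (16.7%, against 14.5% of all genes). Tlr4 itself went from 27.8 and 22.6 TPM to 10.4 TPM in control cells. The depleted level went from 23.1, 24.6 and 21.7 TPM to 12, 8.66 and 7.98 TPM (-0.02, 95% interval -0.64 to 0.60). The adaptor Myd88 differed by -0.09 (interval -0.36 to 0.19) and the coreceptor Cd14 by -0.11 (interval -0.37 to 0.15). Irak3, a kinase homologue that restrains the pathway, was at 24.2 TPM in the control LPS library, against 12.7, 13.4 and 11.6 TPM in the depleted ones (-0.87 ± 0.14, SE, limma adjusted p = 0.0670). It was at 8.42 and 9.20 TPM in control and at 8.00, 9.06 and 8.84 TPM in depleted cells without LPS. Of 21 other pattern recognition receptors 20 were tested and 0 called, and Clec4e, a lectin that senses mycobacterial lipid, had 719 TPM in control and 417, 364 and 369 TPM in depleted cells with LPS (-0.79, adjusted p = 0.0537).

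The 3 lists of transcription factors gave no call either. Of 14 NF-kB subunits and inhibitors 0 were called, with 1 higher and 2 lower at an unadjusted p under 0.05 and a median of -0.06. Nfkbia, the inhibitor that NF-kB itself induces, differed by 0.00 with an interval of -0.44 to 0.44. Of 15 interferon regulatory factors and STATs 14 were tested and 0 called. Stat5a, which relays growth factor and cytokine signals, was at 33.5 TPM in the control LPS library, against 62.8, 63.8 and 58.0 TPM in the depleted ones (0.75, limma adjusted p = 0.0988). The 23 tested AP-1, ATF, EGR and NR4A factors had a median of -0.31, with 0 called. At an unadjusted p under 0.05, 0 were higher and 4 lower (17.4%, against 14.5% of all genes). Myc in that list had 99.9 TPM in control and 66.7, 79.7 and 65.8 TPM in depleted cells with LPS (-0.65, adjusted p = 0.104).

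Feedback inhibitors of inflammation gave no call. Of 26 listed 23 were tested, with a median of 0.24. At an unadjusted p under 0.05, 7 were higher (30.4%, against 2.86% of all genes) and 4 lower (17.4%, against 14.5%). Il10, the main anti-inflammatory cytokine of macrophages, was at 0.807 and 0.775 TPM in control and at 0.154, 0.218 and 0.265 TPM in depleted cells without LPS. With LPS it was at 172 TPM in control cells and at 201, 167 and 182 TPM in depleted cells (0.65, limma adjusted p = 0.107). The control LPS level of Il10 lay within the depleted range, while its depleted levels without LPS lay below both control levels. Dusp4, a phosphatase that switches off MAP kinases, rose from 76.4 and 84.3 TPM to 173 TPM in control cells. Depleted cells had 62.1, 64.6 and 65.6 TPM without LPS and 67.6, 75.6 and 61.4 TPM with LPS, so that the groups overlapped within this line (-1.01 ± 0.15, SE, adjusted p = 0.0537). Il1rn, the interleukin 1 receptor antagonist, reached 3897 TPM in control cells and 3669, 3533 and 3423 TPM in depleted cells (0.02, interval -0.25 to 0.29).

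Interferon-stimulated genes rose in both lines, and most of their differences lay above 0 without a call. All 44 were tested and all 44 rose in both lines, as did 1772 of all 13711 genes. In the difference 0 were called by limma, and 8 were higher and 0 lower at an unadjusted p under 0.05. Of the 44 differences 35 lay above 0, where 29.9% of all genes did, and the median was 0.17, which is 0.32 above that of all genes. With TMM scaling 20 were higher and 0 lower at an unadjusted p under 0.05, again with 0 called. Of all 13711 genes, 1012 were higher and 908 lower with that scaling. Ifit3, an antiviral effector, went from 9.77 and 8.72 TPM to 1036 TPM in control cells. The rise in depleted cells was from 8.77, 7.29 and 6.23 TPM to 1236, 1258 and 1298 TPM (0.58, limma adjusted p = 0.196). Isg20, an exonuclease that degrades viral RNA, had 465 TPM in control and 636, 735 and 693 TPM in depleted cells with LPS (0.68, adjusted p = 0.283). Of 16 guanylate-binding proteins and related GTPases 14 were tested and 0 called, with 3 higher and 0 lower at an unadjusted p under 0.05. Gbp4 of that list had 4.13 TPM in control and 13.8, 11.6 and 13.8 TPM in depleted cells with LPS (1.28, adjusted p = 0.0900).

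An interferon-stimulated response element lay in 44.2% of the 43 promoter windows of 36 of these 44 genes, against 2.98% of all windows. Of the 8 genes at an unadjusted p under 0.05, 4 held one. The window of Ifit3 (chr19:34583279-34583528, plus strand) is printed as the example with the most matches among those shown, in capitals at 156 and 122 bases before the start for the response element and at 56 bases before it for AP-1.
Ifit3: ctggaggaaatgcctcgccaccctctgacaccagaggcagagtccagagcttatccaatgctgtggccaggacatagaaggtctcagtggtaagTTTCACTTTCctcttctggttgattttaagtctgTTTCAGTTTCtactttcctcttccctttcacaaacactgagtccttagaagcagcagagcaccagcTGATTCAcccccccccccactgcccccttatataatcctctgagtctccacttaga

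Effectors of classical activation rose in both lines and gave no call in the difference. Of 30 listed 25 were tested, and all 25 rose in both lines, as did 1772 of all 13711 genes. In the difference 0 were called, and 2 were higher and 6 lower at an unadjusted p under 0.05, with a median of -0.05. Nos2, which makes nitric oxide, had 499 TPM in control and 478, 511 and 451 TPM in depleted cells with LPS (-0.13, 95% interval -0.47 to 0.22). Ptgs2, which makes prostaglandin precursors, had 1564 TPM in control and 1638, 1367 and 1317 TPM in depleted cells (-0.01, interval -0.36 to 0.35). Acod1, which makes itaconate, differed by -0.05 with an interval of -0.46 to 0.36. Slpi, a secreted protease inhibitor, had 17.6 TPM in control and 5.55, 7.03 and 7.05 TPM in depleted cells (-1.0, limma adjusted p = 0.111). Of 22 alternative activation markers 16 were tested, with 1 called higher, which was Ccl22, and 0 lower. Il12b and Arg1, the remaining 2 of 12 activation genes, were below the filter.

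Among death and survival genes Bcl2a1a, a member of the anti-apoptotic Bfl1 family, was called higher. It is listed at 0 TPM in the 5 libraries without LPS and was at 6.51 TPM in the control LPS library, against 28.2, 29.0 and 26.1 TPM in the depleted ones (1.94 ± 0.16, SE, limma adjusted p = 0.0112). Its near-identical copies Bcl2a1b and Bcl2a1d differed by -0.30 and -0.28, neither called. The assignment of reads among these copies is uncertain, so the Bcl2a1a value is too. With a pseudocount of 0.1 the difference of Bcl2a1a was 2.08 and did not pass the threshold. Nlrp3, the inflammasome sensor, had 282 TPM in control and 207, 211 and 182 TPM in depleted cells with LPS (-0.61, adjusted p = 0.120). Of 26 listed inflammasome and cell death genes 25 were tested, with 1 called higher and 0 lower.

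The genes of trimeric G proteins and of PI3K, Akt and mTOR, pathways in which GIV is known to act, gave no call. Of 35 genes of GIV, trimeric G proteins and their regulators 31 were tested and 0 called, with a median of -0.20. At an unadjusted p under 0.05, 2 were higher (6.45%, against 2.86% of all genes) and 6 lower (19.4%, against 14.5%). Gnai2, an inhibitory G alpha subunit, went from 318 and 385 TPM to 230 TPM in control cells. The depleted libraries went from 342, 353 and 352 TPM to 205, 214 and 199 TPM (-0.15, limma adjusted p = 0.596). Rgs16, which shortens G protein signals, differed by -0.48 (adjusted p = 0.280) with higher levels in every depleted library at both times. It had 2.54 and 2.13 TPM against 15.7, 12 and 11.9 TPM without LPS, and 23.9 TPM against 77.1, 75.1 and 71.7 TPM with LPS. Of 25 PI3K, Akt and mTOR genes 24 were tested and 0 called. Pik3cb, a catalytic PI3K subunit, had 22.7 TPM in control and 10.7, 9.41 and 8.90 TPM in depleted cells with LPS (-0.96 ± 0.14, SE, adjusted p = 0.0537).

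Among 27 tested of 29 actin and migration genes, Rnd1 was the only one called. Rnd1, a small GTPase that loosens actin stress fibres, went from 3.13 and 4.52 TPM to 35.2 TPM in control cells. In depleted cells it went from 3.6, 4.1 and 3.74 TPM to 118, 119 and 114 TPM. The lines overlapped without LPS and were 3.32-fold apart with it, a difference in response of 1.69 ± 0.19 (SE, limma adjusted p = 0.0307). Enc1, an actin-associated kelch protein, fell from 7.33 and 8.17 TPM to 2.39 TPM in control cells. The depleted libraries held 7.79, 8.12 and 8.35 TPM without LPS and 7.17, 6.5 and 6.32 TPM with LPS (1.12 ± 0.14, adjusted p = 0.0405).

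Atp6v0d2, a proton pump subunit enriched in osteoclasts, was the 1 lower call of the osteoclast list. It was at 14.5 and 15.6 TPM in control cells without LPS and at 4.06 TPM with LPS. Depleted cells started higher, at 43.4, 42.4 and 44.9 TPM, and had 6.05, 5.61 and 5.89 TPM with LPS (-1.04 ± 0.11, SE, limma adjusted p = 0.0281). Tm4sf19, a small membrane protein of the L6 family, rose from 34.1 and 37.7 TPM to 61.9 TPM in control cells. In depleted cells it fell from 34.0, 33.7 and 33.3 TPM to 17.8, 18.3 and 15.2 TPM, a difference of -1.71 ± 0.14 (adjusted p = 0.0112). Gm20056, a processed pseudogene that starts 309 bases after the end of Tm4sf19 on the same strand, followed the same order. It had 20.9 and 28.4 TPM and then 62.6 TPM in control cells, and 26.1, 23.9 and 28.6 TPM and then 16.3, 18.8 and 15.5 TPM in depleted cells (-1.93 ± 0.23, adjusted p = 0.0352). Reads of a pseudogene and its parent gene can be confused, so its value is uncertain.

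Gpr137b and Dpp7 were called lower and are on none of the lists. Gpr137b, a lysosomal membrane protein, was at 138 and 176 TPM in control cells without LPS and at 136 TPM with LPS. It went from 130, 149 and 154 TPM to 48.2, 45.4 and 48.2 TPM in depleted cells (-1.40 ± 0.18, SE, limma adjusted p = 0.0433). Dpp7, a lysosomal peptidase, had 109 and 113 TPM and then 96.1 TPM in control cells. Depleted cells had 119, 124 and 120 TPM and then 65.6, 68.4 and 63.0 TPM (-0.67 ± 0.09, adjusted p = 0.0493). Ctsk, the collagen-degrading cathepsin of osteoclasts, had 72.9 TPM in control and 42.9, 46.5 and 42.4 TPM in depleted cells with LPS (-0.82, adjusted p = 0.0588). Acp5, the phosphatase used to stain osteoclasts, had 9.89 and 10.4 TPM and then 13.2 TPM in control cells, and 31.9, 34.3 and 28.4 TPM and then 36.1, 40.1 and 34.0 TPM in depleted cells (-0.13, adjusted p = 0.711). Of 13 osteoclast genes listed 10 were tested, with 0 called higher and 1 lower, and a median of -0.35. At an unadjusted p under 0.05, 1 was higher (10%, against 2.86% of all genes) and 5 lower (50%, against 14.5%).

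Lipid synthesis was the list with the lowest median of the 29 plotted for TPM as deposited, with TMM and after rescaling. With quantile normalization the osteoclast list was lower, at -0.28 relative to all genes against -0.24 for lipid synthesis. The list of cholesterol and fatty acid synthesis, which also holds the cholesterol exporter Abca1, had all 29 genes tested. Of these 2 were called lower, Lss and Scd2. At an unadjusted p under 0.05, 22 were lower and 1 higher, where 14.5% and 2.86% of all genes were, and 28 of 29 lay below 0. The median difference was -0.49, which is 0.34 below that of all genes. Leaving out each of the 8 libraries outside the lone group gave medians of -0.52 to -0.46. The control LPS library was in all of these fits, so the range cannot show how the median depends on that library. Relative to all genes the median of the lipid list was -0.34 to -0.24 over the 4 scalings, with 13 to 22 lower at an unadjusted p under 0.05. Of all 13711 genes, 908 to 1982 were lower over these scalings. Called genes were 2 as deposited, 1 with TMM, 0 with quantile normalization and 1 after rescaling. The median response was -0.19 in control cells and -0.84 in depleted cells.

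Lss, which closes squalene epoxide into lanosterol, was at 42.6 and 38.5 TPM in control cells without LPS and at 43.3 TPM with LPS. It went from 39.5, 39.7 and 41.3 TPM to 19.4, 20.0 and 22.3 TPM in depleted cells, a difference of -1.03 ± 0.13 (SE, limma adjusted p = 0.0370). Scd2, a desaturase that makes monounsaturated fatty acids, fell from 284 and 283 TPM to 40.0 TPM in control cells. Its level went from 277, 275 and 271 TPM to 20.2, 20.4 and 18 TPM in depleted cells (-0.95 ± 0.10, adjusted p = 0.0281). Fads1, a desaturase of polyunsaturated fatty acids that is not on the list, fell from 141 and 156 TPM to 64.8 TPM in control cells. Depleted cells had 153, 158 and 160 TPM without LPS and 37.6, 37.7 and 36.0 TPM with LPS (-0.87 ± 0.10, adjusted p = 0.0318). For all 3 the lines lay close together without LPS and apart with it.

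The other sterol genes named here did not pass the threshold. Sqle, which oxidizes squalene, had 44.9 TPM in control and 30.1, 27.9 and 28.4 TPM in depleted cells with LPS (-0.65 ± 0.09, SE, limma adjusted p = 0.0503). Dhcr7, the last reductase of cholesterol synthesis, had 7.69 TPM in control and 3.67, 3.63 and 3.14 TPM in depleted cells (-0.88, adjusted p = 0.0900). Fasn, the fatty acid synthase, had 49.2 TPM in control and 29.8, 33.4 and 27.3 TPM in depleted cells (-0.91, adjusted p = 0.118). Abca1, which exports cholesterol, was the gene above 0. It had 1.58 and 1.63 TPM and then 3.73 TPM in control cells, and 0.657, 0.849 and 0.841 TPM and then 4.82, 3.97 and 3.80 TPM in depleted cells (0.68, adjusted p = 0.184). The sterol element lay in 0 of 25 promoter windows of 20 of the 29 genes, against 0.192% of all windows, a background too low to say anything of this list.

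**Figure D3:**
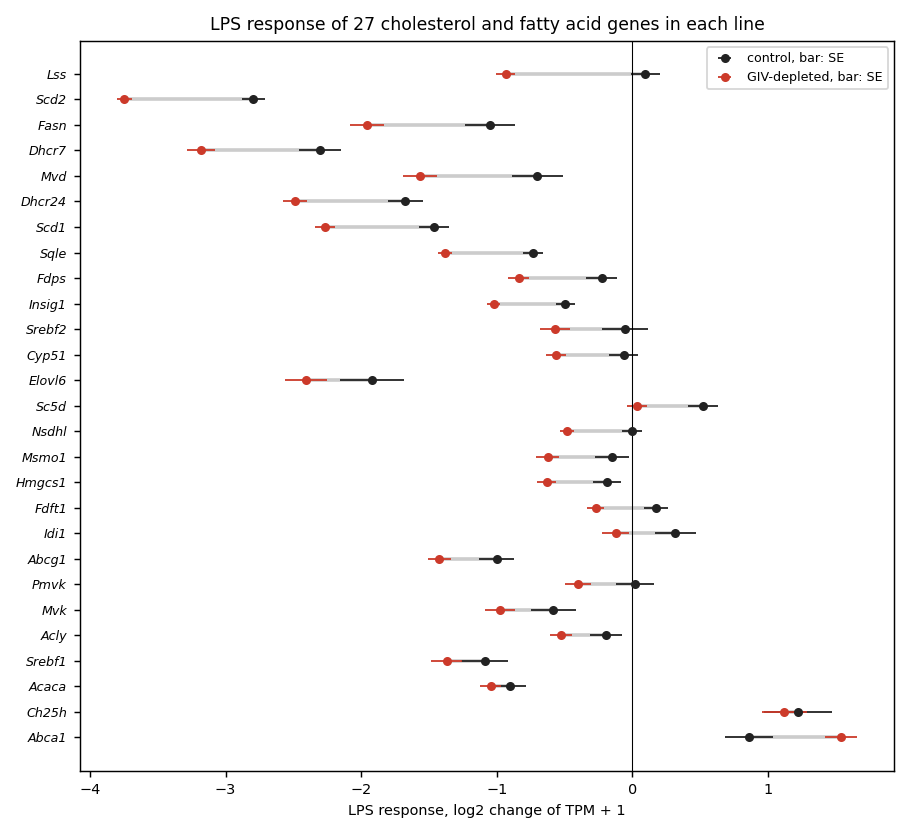
LPS response of 27 of the 29 listed cholesterol and fatty acid synthesis genes, as the log2 change of TPM + 1, in control cells (black) and GIV-depleted cells (red), with bars of 1 SE and a grey line joining both. The depleted response lies to the left in 26 genes and to the right in Abca1, a cholesterol exporter on the list.

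Cell division genes fell with LPS, 35 of 39 past the threshold in both lines, as did 5887 of all 13711 genes. All 39 were tested and 36 differences lay below 0, with 1 called higher and 0 lower, and 1 higher and 18 lower at an unadjusted p under 0.05. The median was -0.28, which is 0.13 below that of all genes. With TMM scaling 13 were lower, where 908 of all 13711 genes were. Cdt1, which licenses replication origins, had 33.4 TPM in control and 19.8, 23.3 and 20.8 TPM in depleted cells with LPS (-0.90, limma adjusted p = 0.0984). Mki67, a marker of cycling cells, went from 79.0 and 73.8 TPM to 14.0 TPM in control cells and from 86.5, 82.8 and 89.2 TPM to 11.4, 10.6 and 11.0 TPM in depleted cells (-0.49, adjusted p = 0.0900). Ccnd2, a D-type cyclin, was the call in the other direction. It had 0.116 and 0.138 TPM and then 0.928 TPM in control cells, and 1.06, 1.30 and 1.51 TPM and then 11.8, 11.1 and 11.1 TPM in depleted cells (1.66 ± 0.20, SE, adjusted p = 0.0352). The depleted line was higher in Ccnd2 at both times, and the control values without LPS lie where adding 1 TPM flattens changes.

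Of 27 listed genes of oxidative and unfolded protein stress 25 were tested and 0 called, with 0 higher and 2 lower at an unadjusted p under 0.05 and a median of -0.06. Ddit4, Nupr1, Car2 and Gm23992 were called higher and are on none of the lists. Ddit4, a stress-induced inhibitor of mTOR complex 1, had 1.49 and 0.954 TPM and then 3.25 TPM in control cells. Depleted cells had 1.07, 1.03 and 0.808 TPM and then 10.3, 11.1 and 10.5 TPM (1.62 ± 0.22, SE, limma adjusted p = 0.0487). Nupr1, a stress-induced chromatin protein, rose from 17.9 and 18.9 TPM to 168 TPM in control cells. Its rise in depleted cells was from 22.4, 25.4 and 24.9 TPM to 399, 411 and 444 TPM (0.93 ± 0.12, adjusted p = 0.0433). Car2, a carbonic anhydrase, went from 14.1 and 13.5 TPM to 32.0 TPM in control cells and from 28.0, 22.9 and 23.7 TPM to 119.5, 121 and 114 TPM in depleted cells (1.05 ± 0.14, adjusted p = 0.0499). With the left-out control library included Nupr1 was at -0.04 and Car2 at -0.02. Gm23992, a short microRNA gene, had the largest difference and the largest error. It was at 13.1 and 26.2 TPM in control cells without LPS and is listed at 0 TPM with LPS. In depleted cells it was at 2.32, 0 and 0 TPM and then at 5.13, 5.18 and 4.62 TPM (6.29 ± 0.85, adjusted p = 0.0492). It is a short gene with a value of 0 in 3 libraries, so its value is uncertain.

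The remaining lower calls were Bhlhe41, Lhfpl2, Dhx37, Ppan, Lonrf3 and Cenpv. Bhlhe41, a transcriptional repressor of the circadian clock, had 23.6 and 26.3 TPM and then 20.9 TPM in control cells. Depleted cells had 18.5, 19.1 and 19.6 TPM and then 5.47, 5.45 and 4.60 TPM (-1.46 ± 0.15, SE, limma adjusted p = 0.0269). Lhfpl2, a tetraspan membrane protein, had 71.5 and 75.9 TPM and then 35 TPM in control cells, and 45.9, 51.6 and 54.2 TPM and then 7.76, 9.22 and 8.21 TPM in depleted cells (-1.40 ± 0.15, adjusted p = 0.0281). Dhx37, a helicase of ribosome assembly, had 17.1 and 16.2 TPM and then 15.4 TPM in control cells, and 19.6, 20.0 and 19.7 TPM and then 9.34, 9.80 and 8.48 TPM in depleted cells (-0.93 ± 0.12). Ppan, also of ribosome assembly, had 74.9 and 84.1 TPM and then 41.7 TPM in control cells, and 99.3, 104 and 101 TPM and then 28.7, 30.4 and 27.1 TPM in depleted cells (-0.87 ± 0.12). Lonrf3, a ring finger protein, and Cenpv, a centromere protein, differed by -0.98 ± 0.12 and -0.89 ± 0.11. The adjusted p of these last 4 genes lay between 0.0370 and 0.0492.

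The lists of energy metabolism, ribosomal proteins and mitochondrial transcripts gave 0 calls. Of 20 glycolysis genes 1 was higher and 1 lower at an unadjusted p under 0.05, and Gapdh differed by -0.22 (95% interval -0.50 to 0.06). Of 29 genes of the TCA cycle and oxidative phosphorylation 0 were higher and 3 lower, with a median of -0.21. The 28 cytosolic ribosomal protein genes had a median of -0.13 with 0 on either side, and the 13 mitochondrially encoded transcripts -0.30 with 1 lower. Of 21 matrix remodelling genes listed 16 were tested and 0 called. Of 25 genes of MHC and antigen processing 21 were tested and 0 called, with a median of 0.03. Of 15 nuclear and small noncoding RNAs 13 were tested and 0 called, with a median of 0.27.

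**Figure D4:**
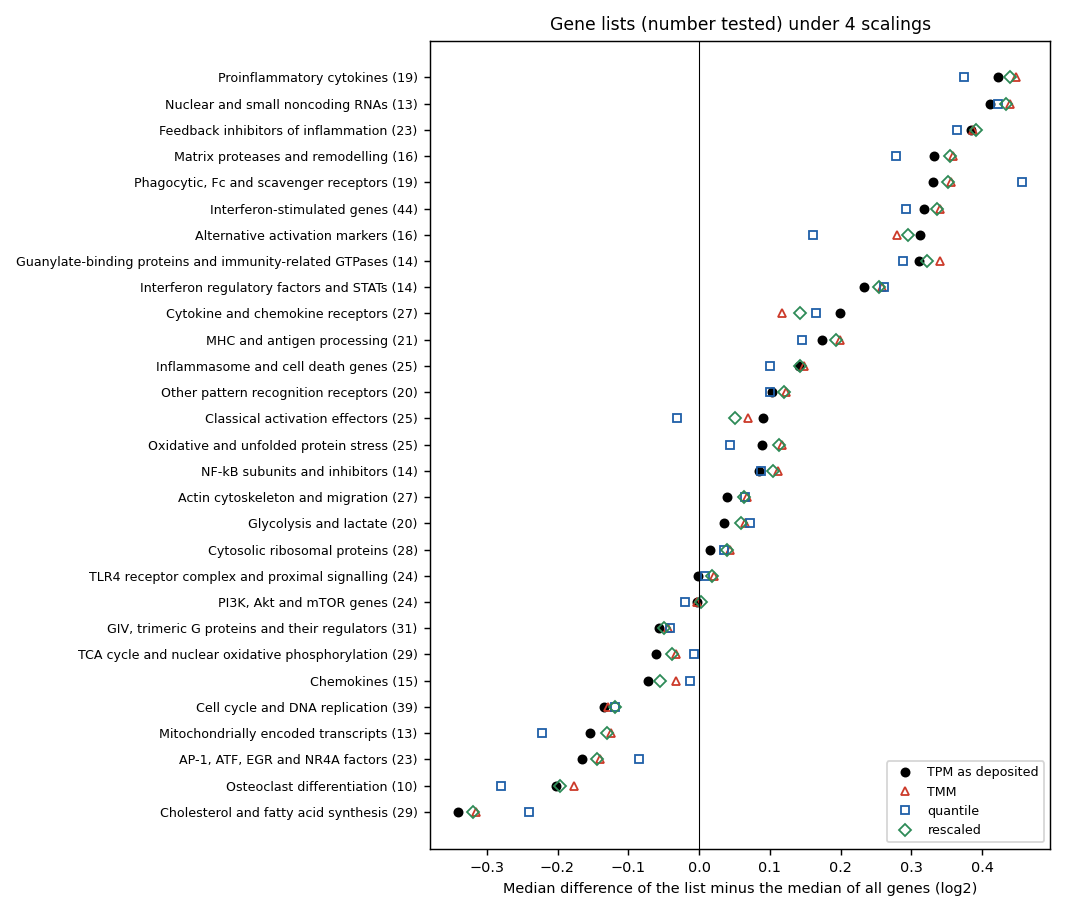
Median difference of each of 29 gene lists minus the median of all genes, in log2 units, for TPM as deposited (black) and 3 other scalings, with the number of tested genes in parentheses. Proinflammatory cytokines lie to the right (0.42 as deposited) and cholesterol and fatty acid synthesis to the left (-0.34), each on its side under all 4 scalings.

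**Figure D5:**
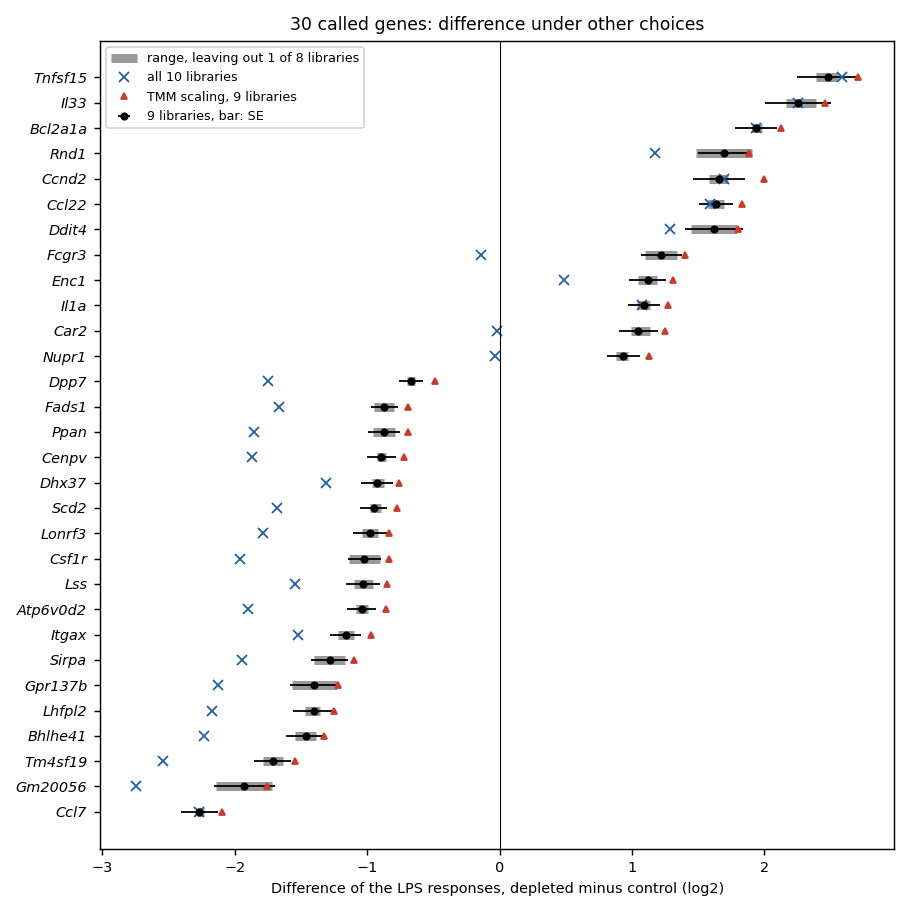
Difference of the LPS responses in 30 of the 31 called genes (Gm23992 is off the scale), with 1 SE (black), the range over leaving out each of 8 libraries (grey), TMM scaling (red) and all 10 libraries (blue crosses). Each difference keeps its sign in the 9-library settings shown, and with all 10 libraries Fcgr3, Car2 and Nupr1 lie just below 0.

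With all 10 libraries the median of all genes was -0.80, and 28 of the 31 genes kept their sign. Under TMM scaling 26 of the 31 were called again, 23 under quantile normalization and 27 after rescaling, each with the same sign in all 31.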

How the data were processed

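Total RNA of RAW cells was sequenced in 11 labelled samples. The control sample of set 3 with LPS is not analysed here. The authors deposited log2 values, log2(TPM + 1) per gene for 52143 genes, made with kallisto 0.45.0 on GRCm38 per the submitters' processing notes. The annotation release and the use of strand are not given in the sources used here. TPM keeps no read total, so depth and counting precision are unknown. Symbols held by several genes were kept as separate genes by identifier, with 1 gene per listed symbol. Gene positions and biotypes came from GENCODE M21 (98.5% of genes).

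The members of the comparison, the 36 gene lists and the named genes were chosen with earlier results of these data known. Genes that reached a log2 value of 1 in 2 or more of the 9 libraries were fitted in 1 model of 4 groups with limma 3.58.1 in R 4.3.3, with a variance trend, 5 residual degrees of freedom and Benjamini-Hochberg adjustment over 13711 genes at 0.05. TPM is 2 to the power of the value, minus 1. Named genes are Ccdc88a, 12 activation genes, the 12 largest called differences in each direction with a group mean log2 of at least 3, called genes with opposite responses, and for each list up to 4 called members or the 2 most abundant. Some list members are not reported here by name. Intervals are 95% intervals of the fit, without adjustment.

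Alternatives were a block for the set number, other filters, a pseudocount of 0.1, all 10 libraries, sets 2 and 3, and GC trend removal. Scaling alternatives were TMM factors from TPM with trims of 30% and 5% and normalization by quantiles. A further scaling used a total that omits mitochondrial genes and the 100 most abundant genes. Variances were also fitted by eBayes without trend and with robust variances. Each library outside the lone control LPS group was left out in turn, and the control LPS library never was. The model was tested on simulated data, where it recovered larger changes more often than smaller ones, missed some of both and made some false calls. The simulation drew independent noise of the fitted spread for every library, the lone one included, with no shift of a whole library. It cannot tell how often calls are false if the lone library was unlike the others. Motifs were searched on both strands of the 250 bases before each RefSeq start. Figures were made with Python 3.11.15 and matplotlib 3.10.9.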

Additional observations from a re-analysis of the deposited data

Results flagged for a closer look

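The LPS responses of the lines differed by the test of the difference itself, an interaction term in limma with Benjamini-Hochberg adjustment over 13711 genes, for 31 genes (adjusted p from 0.00525 to 0.0499). The control LPS response rests on 1 library in each case. The higher differences, in log2 units of TPM + 1, were Gm23992 6.29, Tnfsf15 2.48, Il33 2.25, Bcl2a1a 1.94, Rnd1 1.69, Ccnd2 1.66, Ccl22 1.64, Ddit4 1.62, Fcgr3 1.22, Enc1 1.12, Il1a 1.09, Car2 1.05, Nupr1 0.93. The lower ones were Ccl7 -2.27, Gm20056 -1.93, Tm4sf19 -1.71, Bhlhe41 -1.46, Lhfpl2 -1.40, Gpr137b -1.40, Sirpa -1.28, Itgax -1.16, Atp6v0d2 -1.04, Lss -1.03, Csf1r -1.02, Lonrf3 -0.98, Scd2 -0.95, Dhx37 -0.93, Cenpv -0.89, Ppan -0.87, Fads1 -0.87, Dpp7 -0.67.

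In the control library without LPS that the comparison leaves out, replicate 2, Mir6236 took 57.8% of TPM, against 3.79% to 8.78% in the 9 libraries used. Mir6236 is annotated as a microRNA gene. Ribosomal RNA genes took 3.54% in that left-out library, against 0.241% to 0.559% in the 9.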

How the results depend on the processing

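Depth is unknown for TPM values, and the lone control LPS library is assumed to vary like the others. All 31 called differences kept their sign under the alternatives tried on the 9 libraries or fewer, but the number of calls moved. From 13 higher and 18 lower, it went to 63 and 297 without a filter, 19 and 69 with the filter met in 1 library, 16 and 57 with the stricter filter, and 7 and 23 with a pseudocount of 0.1. TMM scaling gave 49 and 29, quantile normalization 25 and 14, and rescaling 34 and 32. It was 14 and 9 without the variance trend, 17 and 37 with robust variances, 1 and 0 with sets 2 and 3 only, and, chosen after seeing the data, 35 and 138 after removing the GC trend. Leaving out single libraries gave 0 to 7 higher and 0 to 14 lower calls. All 10 libraries gave 0 and 0, or 2 and 1 with TMM scaling, which was also chosen after seeing the data, and with all 10 the differences of Fcgr3, Car2 and Nupr1 turned to -0.138, -0.0166 and -0.0351. The cause of these shifts was not tested, beyond the fewer or more genes and libraries in each fit.

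With the set number as a replicate block, limma gave 0 higher and 0 lower calls at 3 residual degrees of freedom, 1820 genes at an unadjusted p under 0.05, and the same sign in all 31. Deviations from group means correlated at -0.0013 to 0.0972 over 7 same-set pairs and at -0.0972 to 0.0362 over 14 pairs of other sets. Among depleted libraries, same-set pairs lay at 0.0617, 0.0715 and 0.0970 and pairs of other sets at -0.0707 to -0.0042. In groups this small such deviations constrain each other, so they cannot decide whether the set numbers pair the libraries. Tnf (-0.79 as reported) was called under 7 alternatives, at -0.79 to -0.60, and Clec4e under 6. Of 1143 values of the 52 named genes that were not called, 111 had the other sign under an alternative.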

Other observations

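Requiring the minimum level in only 1 library added 1137 genes to the 13711. Of these 22 were called lower in the difference and 0 higher. All 22 had their highest value in the control LPS library, as did 104 of the 1137 genes, where each of the other 8 libraries held the highest value of 75 to 157 of them. Genes seen in a single library of the lone group were therefore not described.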
